A study of Mus musculus with 12 samples.

Results

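The 32 genes described here encode the glycolytic route from glucose entry to lactate export together with the HIF oxygen-sensing system and several genes known to be induced by low oxygen. They were taken by symbol from a fixed list that was chosen with earlier results of these data known. The shares of members called below are therefore not free of that choice. All 32 were found among the 54833 rows of the expression table. Aldoa occurred under 2 identifiers, which gave 33 rows, and all 33 passed the filter on low counts (21495 genes tested). RNA was sequenced from 12 samples of perihematomal caudate putamen of male C57BL/6 mice, 24 h after surgery. Mice were young (8 to 10 weeks of age) or aged (20 to 22 months), and each age was split into sham mice (saline injected) and mice with intracerebral hemorrhage (ICH), produced by injecting 0.075 U of type IV collagenase in 0.4 µl. Each of the 4 groups held 3 samples, and each sample was a pool of tissue from 2 or 3 mice, so that a P value measures the spread between pools and no value belongs to a single animal. Collagenase ruptures vessels and damages tissue in addition to releasing blood, and sham mice received none of the enzyme, so the effect of blood and that of the enzyme cannot be told apart in these groups.

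Glycolysis breaks glucose down to pyruvate in the cytosol; glucose enters through transporters of the SLC2 family, is trapped by hexokinases and committed at the phosphofructokinase step. Pyruvate either enters mitochondria or is reduced to lactate, which leaves or enters cells through the monocarboxylate transporters of the SLC16 family, and in the brain lactate is exchanged among glia, endothelium and neurons. When oxygen is low, prolyl hydroxylases of the EGLN family stop marking HIF-alpha proteins for degradation, and HIF then activates many glycolytic genes through short promoter elements, while much of HIF-alpha regulation takes place on the protein and is not read by RNA-seq.

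The samples held 28410896 to 37785160 counted fragments each, of which the members took 0.744% to 0.809%. Levels are given as FPKM (fragment counts normalized to gene length and library size, as deposited), and changes as log2FC ± SE from an edgeR quasi-likelihood fit on the counts of all 12 samples with the P value adjusted over all genes tested. A gene is said to rise or fall where its adjusted P was under 0.05. The striatal projection neuron markers of the tissue (9 of 9 tested, among them Drd1, Drd2 and Ppp1r1b) were present in every group, with a summed level of 1774 to 3024 CPM in the young sham, 513 to 1725 in the young ICH, 1513 to 2640 in the aged sham and 325 to 1912 in the aged ICH group (CPM, counts normalized to the TMM-scaled library size). None of the 9 passed the test at either age, although their median log2FC was -0.95 in young and -1.13 in aged mice. The ICH samples were widely spread. The 6 choroid plexus markers (Ttr, Folr1, Clic6, Kl, Sostdc1 and Otx2) summed to 4071 CPM in young ICH replicate 3, 1555 in aged ICH replicate 1 and 1974 in aged ICH replicate 2, against at most 488 in the other 9 samples. Counts of members called and results of single members that lead below are therefore also given without these 3 samples. The ratios and the genes outside the member list are not given that way. Levels come from pieces of tissue, in which fewer cells of a type and less RNA per cell cannot be told apart.

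In young mice with ICH, 8 of the 33 rows rose (24.2%, against 9.89% of all genes tested) and 4 fell (12.1%, against 9.23%). The genes that rose were Adm, Slc16a3, Hk3, Slc16a1, Hk2, Ddit4, Slc2a1 and Hif1a, and those that fell were Pfkp, Pgam1, Ldha and Aldoa. In aged mice with ICH, 8 rows rose as well (24.2%, against 7.0% of all genes), namely Slc16a3, Hk2, Hk3, Adm, Slc16a1, Slc2a1, Pfkfb3 and Hif1a, and only Pgam1 fell (3.03%, against 6.15%). Glucose uptake by Slc2a1, hexokinase by Hk2 and Hk3, and monocarboxylate transport by Slc16a1 and Slc16a3 were thus represented among the genes that rose at both ages, whereas no enzyme that catalyzes a step from glucose 6-phosphate isomerization to lactate formation rose at either age. The median log2FC of the members was -0.08 in young and -0.07 in aged mice, against 0.02 and 0.00 over all genes tested. By a criterion of a fold change above 1.5 or below 0.67 with an unadjusted P under 0.05, 7 members rose and none fell in young mice (background 8.66% and 3.49%), and 5 rose and none fell in aged mice (7.24% and 2.82%). On the TMM scale the ICH and sham samples did not overlap for 10 rows that were higher and 8 that were lower in young mice (background 18.5% and 16.5%), and for 8 and 10 rows in aged mice (17.8% and 17.3%). In FPKM the counts were 12 higher and 3 lower in young mice (25.9% and 10.5%), the 3 being Aldoa, Pfkp and Pgam1, and 11 higher and 4 lower in aged mice (24.6% and 11.2%), the 4 being Ldhb, Ndrg1, Pgam1 and Tpi1. Without the 3 samples with choroid plexus markers, 6 rose and none fell in young mice, and Slc16a3 and Slc16a1 alone rose and none fell in aged mice, where 1 ICH sample was left and was assumed to vary like the other groups. The balance of calls over all genes depended on the scaling, with 2125 up and 1985 down in young mice under TMM and 3164 and 1126 under plain total counts (aged 1505 and 1323 against 2100 and 747). The count of members that rose stayed at 8 at both ages under total counts, and the count that fell in young mice went from 4 to 1, with Pgam1 left.

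**Figure D1:**
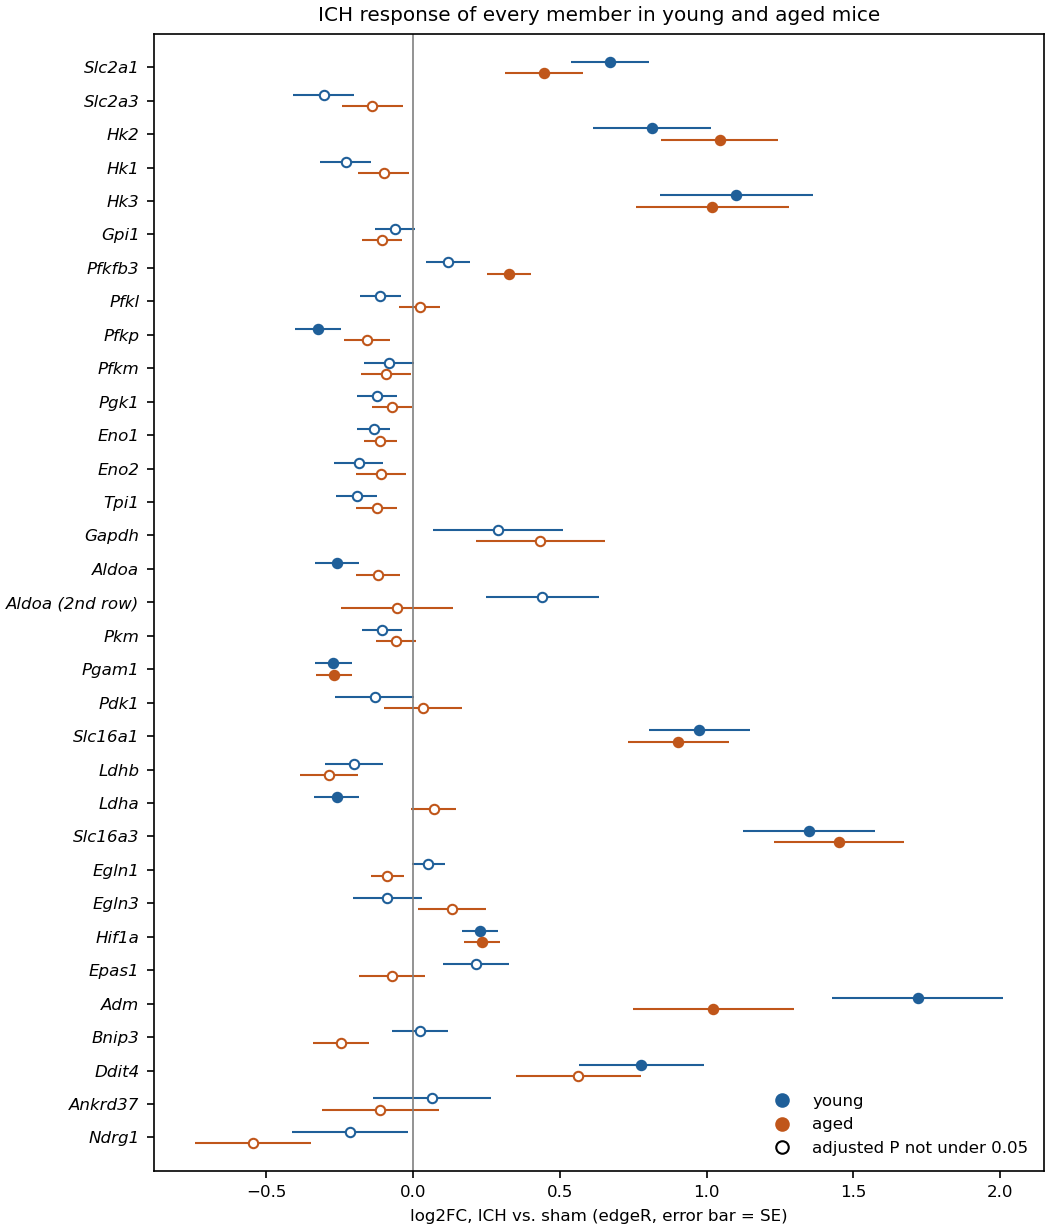
log2FC of ICH vs. sham for each of the 33 rows, ordered from glucose transporters at the top to hypoxia-induced genes at the bottom, in young (blue) and aged (orange) mice. The horizontal axis is the log2FC with its SE as the error bar, and filled points have an adjusted P under 0.05. The points past 0.6 belong to Adm, Slc16a3, Hk3, Slc16a1, Hk2, Ddit4 and Slc2a1, and most enzymes of the middle of the pathway lie between -0.3 and 0.

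Glucose entry was led by Slc2a1 (GLUT1, ENSMUSG00000028645, chr4:119108711-119137983, plus strand), the transporter of the blood-brain barrier endothelium and of astrocytes. Slc2a1 stood at 47.2, 31.6 and 38.6 FPKM in the young sham and 71.0, 58.1 and 69.8 FPKM in the young ICH samples, and at 34.3, 43.8 and 39.5 FPKM in the aged sham and 55.9, 59.7 and 52.6 FPKM in the aged ICH samples. All ICH samples of an age lay above all of its sham samples, and the sham groups of both ages overlapped. Slc2a1 rose in young mice (log2FC 0.67 ± 0.13, adjusted P = 0.0064, 1.59-fold) and in aged mice (log2FC 0.45 ± 0.13, adjusted P = 0.047, 1.36-fold). The call in aged mice was lost without any one of 8 samples (replicate 3 of young sham, replicate 1 of young ICH, replicates 1, 2 or 3 of aged sham or replicates 1, 2 or 3 of aged ICH; adjusted P 0.056 to 0.17) and with the 3 samples named above left out (adjusted P = 0.35), whereas the call in young mice was kept in every alternative run. Slc2a3 (GLUT3), the main neuronal glucose transporter, did not pass the test. Slc2a3 stood at 22.9, 23.3 and 22.5 FPKM in the young sham and 19.6, 22.5 and 16.9 FPKM in the young ICH samples, and at 21.6, 22.0 and 19.2 FPKM in the aged sham and 18.4, 20.1 and 21.5 FPKM in the aged ICH samples. Its levels after ICH were lower than in sham samples in young mice without overlap on the TMM scale (log2FC -0.30 ± 0.10, adjusted P = 0.062), and overlapped them in aged mice (log2FC -0.14 ± 0.10, adjusted P = 0.42). The 9 endothelial markers summed to 304 to 368 CPM in the young sham, 400.4 to 414 in the young ICH, 345 to 386 in the aged sham and 379 to 451 in the aged ICH group, and 5 of them rose in young and 4 in aged mice with none falling, with no marker at 0 in any group. Of the 8 astrocyte markers 4 rose in young mice, and in aged mice 2 rose and 1 fell, with a summed level of 4418 to 4982 CPM in the young sham, 3902 to 4679 in the young ICH, 4507 to 4901 in the aged sham and 3798 to 4268 in the aged ICH group. The part of either cell type in the Slc2a1 result was not tested.

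Hexokinases phosphorylate glucose and so hold it in the cell. Hk2 (ENSMUSG00000000628, chr6:82725025-82774454, minus strand) is an inducible form. Hk2 stood at 1.83, 1.75 and 1.83 FPKM in the young sham and 2.78, 3.41 and 3.95 FPKM in the young ICH samples, and at 2.02, 1.36 and 2.56 FPKM in the aged sham and 4.82, 3.50 and 4.55 FPKM in the aged ICH samples. Every ICH sample exceeded every sham sample of its age, and the aged sham samples were more scattered than the young sham samples. Hk2 rose in young (log2FC 0.81 ± 0.20, adjusted P = 0.017, 1.76-fold) and aged mice (log2FC 1.05 ± 0.20, adjusted P = 0.0091, 2.06-fold). The young call was lost without young sham replicate 2 (adjusted P = 0.065) or young ICH replicate 3 (adjusted P = 0.060), and both calls were lost with the 3 samples left out, where the log2FC was 0.70 (adjusted P = 0.069) and 1.14 (adjusted P = 0.056).

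Hk3 (ENSMUSG00000025877, chr13:55005985-55021385, minus strand) is known as a hexokinase of myeloid blood cells. Hk3 stood at 1.14, 1.29 and 0.940 FPKM in the young sham and 2.48, 2.22 and 3.02 FPKM in the young ICH samples, and at 1.48, 0.873 and 1.72 FPKM in the aged sham and 3.93, 2.30 and 2.43 FPKM in the aged ICH samples. The groups did not overlap within an age, and aged ICH replicate 1 stood well above the other samples of its group. Hk3 rose in young (log2FC 1.102 ± 0.26, adjusted P = 0.014) and aged mice (log2FC 1.02 ± 0.26, adjusted P = 0.026). The young call was lost without young sham replicate 3 (adjusted P = 0.055) or young ICH replicate 3 (adjusted P = 0.0505). The aged call was lost without aged sham replicate 1 (adjusted P = 0.065), aged sham replicate 2 (adjusted P = 0.081) or aged ICH replicate 1 (adjusted P = 0.12). With the 3 samples with choroid plexus markers left out, the aged log2FC of Hk3 was 0.78. Most markers of neutrophils and of monocytes and macrophages moved the same way. Of the 9 neutrophil markers that passed the filter (of 11) 7 rose in young and 6 in aged mice. Their summed level was 11.3 to 13.9 CPM in the young sham and 22.1 to 40.1 in the young ICH group. It was 16.3 to 27.7 in the aged sham and 40.7 to 57.1 in the aged ICH group. Of the 10 monocyte and macrophage markers 7 rose at each age, with a summed level of 136 to 147 CPM in the young sham, 334 to 424 in the young ICH, 117 to 249 in the aged sham and 353 to 463 in the aged ICH group. None of these markers was at 0 in any group, and their part in the Hk3 result was not tested. Hk1, the constitutive brain hexokinase, was far more abundant (32.1 to 41.1 FPKM) and was not called (log2FC -0.23 ± 0.09, adjusted P = 0.090 in young, log2FC -0.10 ± 0.09, adjusted P = 0.49 in aged mice).

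**Figure D2:**
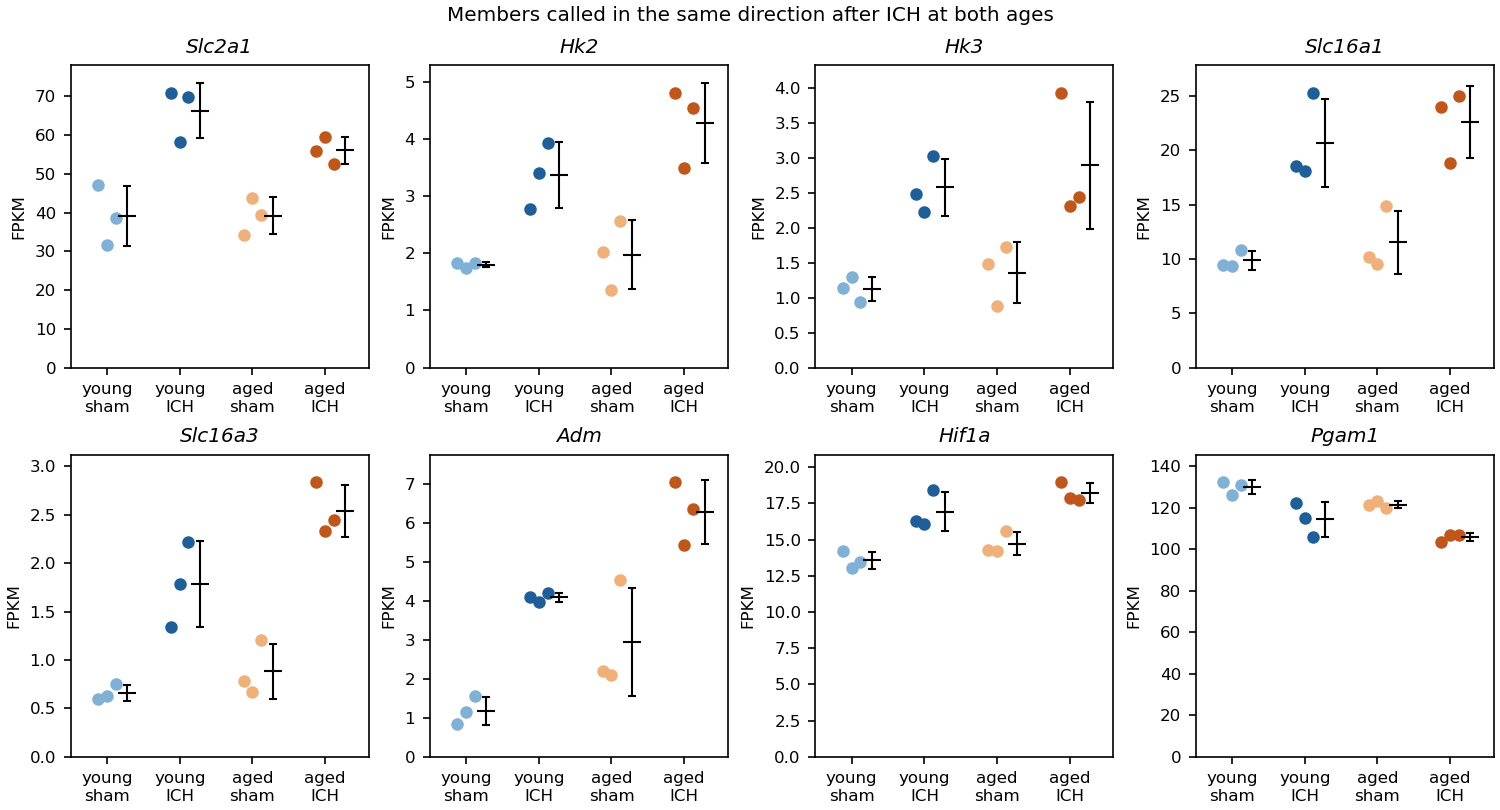
FPKM by sample of the 8 members called in the same direction at both ages, with the 3 samples of each group as points and the mean ± SD beside them, all axes starting at 0. In the 7 genes that rose the ICH samples lie above the sham samples of the same age, and in Pgam1 they lie below.

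Phosphofructokinase is the committing step of glycolysis. Pfkfb3 makes its activator fructose 2,6-bisphosphate and is the only member of this step that rose. Pfkfb3 stood at 6.66, 6.67 and 7.06 FPKM in the young sham and 7.50, 7.19 and 8.88 FPKM in the young ICH samples, and at 7.17, 6.40 and 7.29 FPKM in the aged sham and 9.44, 9.25 and 8.82 FPKM in the aged ICH samples. In aged mice the groups were clearly apart, and in young mice replicate 3 of the ICH group stood above the rest while the other samples overlapped on the TMM scale. Pfkfb3 rose in aged mice (log2FC 0.33 ± 0.08, adjusted P = 0.018) and did not pass the test in young mice (log2FC 0.12 ± 0.08, adjusted P = 0.30). The difference between these 2 responses did not pass the test either (interaction log2FC 0.21 ± 0.11, adjusted P = 0.9999). The aged call was lost without aged sham replicate 2 (adjusted P = 0.073) or aged ICH replicate 1 (adjusted P = 0.080). With the 3 samples with choroid plexus markers left out, the aged log2FC of Pfkfb3 was 0.28. Pfkp, the platelet-type subunit that is abundant in brain, fell in young mice. Pfkp stood at 24.0, 27.99 and 27.2 FPKM in the young sham and 21.2, 24.0 and 22.2 FPKM in the young ICH samples, and at 26.4, 25.4 and 28.4 FPKM in the aged sham and 26.6, 24.4 and 24.6 FPKM in the aged ICH samples. All young ICH samples lay below all young sham samples, although by a narrow margin. The log2FC was -0.32 ± 0.08 (adjusted P = 0.015) in young and -0.16 ± 0.08 (adjusted P = 0.21) in aged mice, and the young call was lost without young sham replicate 2 (adjusted P = 0.071), young sham replicate 3 (adjusted P = 0.052) or young ICH replicate 1 (adjusted P = 0.051) and under total-count scaling (adjusted P = 0.0502). The muscle-type and liver-type subunits Pfkm (99.6 to 123 FPKM) and Pfkl (19.5 to 23.1 FPKM) and the isomerase Gpi1 (67.1 to 82.8 FPKM) were not called, with a log2FC between -0.11 and 0.02 in the 6 comparisons.

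The lower pathway splits and oxidizes the sugar and yields ATP, and its enzymes were among the most abundant transcripts of the members. Pgam1, phosphoglycerate mutase (ENSMUSG00000011752, chr19:41911923-41918660, plus strand), was the only member that fell at both ages. Pgam1 stood at 132, 126 and 131 FPKM in the young sham and 122, 115 and 106 FPKM in the young ICH samples, and at 121, 123 and 119.8 FPKM in the aged sham and 103, 107 and 107 FPKM in the aged ICH samples. The ICH samples lay below the sham samples of their age without overlap. Its log2FC was nearly equal in young (log2FC -0.27 ± 0.06, adjusted P = 0.012) and aged mice (log2FC -0.27 ± 0.06, adjusted P = 0.018). The aged call was lost without aged sham replicate 1 (adjusted P = 0.063), aged sham replicate 2 (adjusted P = 0.066), aged ICH replicate 1 (adjusted P = 0.084) or aged ICH replicate 3 (adjusted P = 0.054), and both calls were lost with the 3 samples left out (adjusted P = 0.060 and 0.13). A share of 39.7% of the 100-base stretches of the Pgam1 transcript examined also occurred in transcripts of 2 pseudogenes. This may limit how surely Pgam1 reads were assigned.

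Aldoa, the main aldolase (ENSMUSG00000030695), was the most abundant member. Aldoa stood at 417, 397 and 445 FPKM in the young sham and 389, 386 and 344 FPKM in the young ICH samples, and at 383, 383 and 370.0 FPKM in the aged sham and 361, 371 and 368 FPKM in the aged ICH samples. Young ICH samples lay below young sham samples without overlap, and the groups of aged mice were apart on the TMM scale but overlapped in FPKM. Aldoa fell in young mice (log2FC -0.26 ± 0.07, adjusted P = 0.034) and was not called in aged mice (log2FC -0.12 ± 0.07, adjusted P = 0.33). Its young call was lost without any one of 5 samples (replicates 1, 2 or 3 of young sham, replicate 3 of young ICH or replicate 3 of aged ICH; adjusted P 0.051 to 0.12) and under total-count scaling (adjusted P = 0.10). The other identifier of Aldoa (ENSMUSG00000114515), annotated directly upstream on the same strand, stood at 1.36 to 2.47 FPKM and was not called (log2FC 0.44 ± 0.19, adjusted P = 0.13 in young, log2FC -0.06 ± 0.19, adjusted P = 0.88 in aged mice). Triosephosphate isomerase Tpi1 (125 to 151 FPKM), phosphoglycerate kinase Pgk1 (134 to 162 FPKM), the enolases Eno1 (102 to 110.0 FPKM) and Eno2 (138 to 165 FPKM) and pyruvate kinase Pkm (181 to 212 FPKM) did not pass the test at either age, with log2FC between -0.19 and -0.06. The assignment of Eno1 reads may be uncertain, because 59.0% of its 100-base stretches occur in 4 other genes. For Pgk1 the share was 67.0%, in 3 pseudogenes.

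Gapdh, the dehydrogenase that is widely used as a reference transcript, stood apart from its neighbors in the pathway. Gapdh stood at 3.37, 3.39 and 3.10 FPKM in the young sham and 4.16, 4.31 and 4.35 FPKM in the young ICH samples, and at 3.997, 4.83 and 3.96 FPKM in the aged sham and 9.02, 4.79 and 4.31 FPKM in the aged ICH samples. All of these levels were under 10 FPKM, and replicate 1 of the aged ICH group was far above the remaining samples. Of the 100-base stretches of the Gapdh transcript examined 78.0% also occurred in transcripts of 86 other genes, 82 of them pseudogenes, the highest share among the members. The sources used here do not state how fragments that match several genes were counted, so the Gapdh level is uncertain. Its difference did not pass the test in young (log2FC 0.29 ± 0.22, adjusted P = 0.39) or aged mice (log2FC 0.43 ± 0.22, adjusted P = 0.22).

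**Figure D3:**
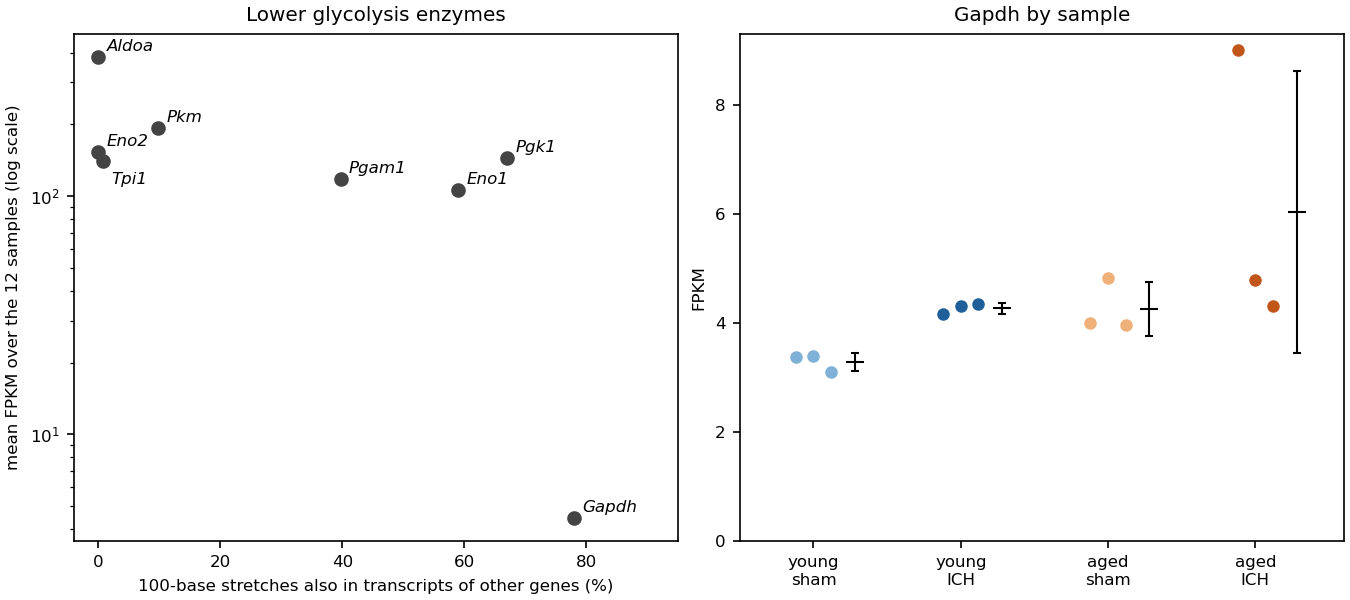
Left, mean FPKM over the 12 samples (log scale) of the lower glycolysis enzymes against the percent of their 100-base transcript stretches that also occur in transcripts of other genes. Right, FPKM of Gapdh by sample with the mean ± SD of each group. Gapdh has the highest shared percent and lies far below the other enzymes, and 1 aged ICH sample stands at 9.02 FPKM.

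At the end of the pathway, both members that carry lactate rose at both ages, while neither subunit of lactate dehydrogenase did. Slc16a1 (MCT1, ENSMUSG00000032902, chr3:104638668-104658462, plus strand) carries lactate and other monocarboxylates across endothelial and glial membranes. Slc16a1 stood at 9.40, 9.35 and 10.9 FPKM in the young sham and 18.6, 18.1 and 25.3 FPKM in the young ICH samples, and at 10.2, 9.55 and 14.8 FPKM in the aged sham and 24.0, 18.9 and 25.0 FPKM in the aged ICH samples. All ICH samples were above all sham samples of both ages. Slc16a1 rose in young (log2FC 0.98 ± 0.17, adjusted P = 0.0039, 1.97-fold) and aged mice (log2FC 0.90 ± 0.17, adjusted P = 0.0089, 1.87-fold). Slc16a3 (MCT4, ENSMUSG00000025161, chr11:120948480-120960868, plus strand) is the low-affinity exporter of strongly glycolytic cells and the least abundant member. Slc16a3 stood at 0.592, 0.631 and 0.746 FPKM in the young sham and 1.34, 1.79 and 2.22 FPKM in the young ICH samples, and at 0.778, 0.667 and 1.20 FPKM in the aged sham and 2.84, 2.33 and 2.44 FPKM in the aged ICH samples. Sham samples stayed at or below 1.20 FPKM and ICH samples at or above 1.34. It had the largest log2FC of the members in aged mice (log2FC 1.45 ± 0.22, adjusted P = 0.0050, 2.74-fold) and rose by a similar amount in young mice (log2FC 1.35 ± 0.22, adjusted P = 0.0033, 2.55-fold). The calls of both transporters were kept at both ages in every alternative run, the 3-sample omission included.

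Lactate dehydrogenase and the gate to mitochondria showed no rise. Ldha encodes the muscle-type subunit of lactate dehydrogenase. Ldha stood at 68.7, 77.3 and 81.4 FPKM in the young sham and 61.5, 70.5 and 69.9 FPKM in the young ICH samples, and at 66.5, 60.1 and 65.4 FPKM in the aged sham and 70.5, 72.4 and 68.8 FPKM in the aged ICH samples. In young mice the ICH samples were below the sham samples on the TMM scale, while in FPKM the groups overlapped, and in aged mice the ICH samples were, in FPKM, all above the sham samples. Ldha fell in young mice (log2FC -0.26 ± 0.08, adjusted P = 0.035) and was not called in aged mice (log2FC 0.07 ± 0.08, adjusted P = 0.58). The young call was lost without any one of 5 samples (replicates 2 or 3 of young sham, replicates 1 or 3 of young ICH or replicate 3 of aged ICH; adjusted P 0.0501 to 0.12) and under total-count scaling (adjusted P = 0.13). Ldhb, the heart-type subunit (179.7 to 245 FPKM), was not called (log2FC -0.20 ± 0.10, adjusted P = 0.18 and log2FC -0.28 ± 0.10, adjusted P = 0.080), nor was Pdk1, a kinase that inhibits pyruvate dehydrogenase (7.77 to 10.6 FPKM, log2FC -0.13 ± 0.13, adjusted P = 0.53 and log2FC 0.03 ± 0.13, adjusted P = 0.90).

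Of the HIF system, Hif1a (ENSMUSG00000021109), which encodes the oxygen-labile HIF-1 alpha subunit, rose by a small fold. Hif1a stood at 14.2, 13.0 and 13.5 FPKM in the young sham and 16.3, 16.1 and 18.5 FPKM in the young ICH samples, and at 14.3, 14.2 and 15.6 FPKM in the aged sham and 19.0, 17.9 and 17.8 FPKM in the aged ICH samples. The ICH samples were above the sham samples at both ages and the spread in each group was small. Hif1a rose in young (log2FC 0.23 ± 0.06, adjusted P = 0.025) and aged mice (log2FC 0.24 ± 0.06, adjusted P = 0.029), a fold change of 1.17 and 1.18. The young call was lost without young sham replicate 2 (adjusted P = 0.10), young sham replicate 3 (adjusted P = 0.074) or young ICH replicate 3 (adjusted P = 0.088). The aged call was lost without aged sham replicate 1 (adjusted P = 0.099), aged sham replicate 2 (adjusted P = 0.10), aged ICH replicate 1 (adjusted P = 0.12) or aged ICH replicate 3 (adjusted P = 0.067), and with the 3 samples left out neither passed (adjusted P = 0.12 and 0.19). Epas1, the HIF-2 alpha subunit enriched in endothelium (31.0 to 44.9 FPKM), and the oxygen-sensing hydroxylases Egln1 (24.7 to 28.9 FPKM) and Egln3 (2.98 to 3.81 FPKM) were not called, with log2FC of 0.21, 0.05 and -0.09 in young and -0.07, -0.09 and 0.13 in aged mice. Egln3 is itself a well known HIF target.

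Among the genes known to be induced by hypoxia, Adm, which encodes the vasodilator peptide adrenomedullin (ENSMUSG00000030790, chr7:110627661-110629820, plus strand), had the largest log2FC of the members in young mice. Adm stood at 0.834, 1.14 and 1.55 FPKM in the young sham and 4.11, 3.97 and 4.21 FPKM in the young ICH samples, and at 2.20, 2.11 and 4.55 FPKM in the aged sham and 7.06, 5.44 and 6.37 FPKM in the aged ICH samples. Young sham samples were the lowest and aged ICH samples the highest, no groups of an age overlapped, and aged sham replicate 3 was above every young ICH sample. Adm rose in young (log2FC 1.72 ± 0.29, adjusted P = 0.0034, 3.29-fold) and aged mice (log2FC 1.02 ± 0.27, adjusted P = 0.032, 2.03-fold). The young call was kept in every alternative run, and the aged call was lost without aged sham replicate 1 (adjusted P = 0.12), aged sham replicate 2 (adjusted P = 0.11), aged ICH replicate 1 (adjusted P = 0.12) or aged ICH replicate 3 (adjusted P = 0.083). With the 3 samples left out the aged log2FC was 1.05 (adjusted P = 0.19). Ddit4 (REDD1), an inhibitor of mTORC1 that also responds to glucocorticoids and other stress, rose in young mice. Ddit4 stood at 22.7, 19.1 and 23.7 FPKM in the young sham and 50.6, 31.4 and 37.3 FPKM in the young ICH samples, and at 16.7, 27.0 and 19.5 FPKM in the aged sham and 27.8, 41.5 and 28.9 FPKM in the aged ICH samples. The young groups were apart with a wide spread after ICH, and the aged groups overlapped on the TMM scale. The log2FC was 0.78 ± 0.21 (adjusted P = 0.027) in young and 0.56 ± 0.21 (adjusted P = 0.11) in aged mice. The young call was lost without young sham replicate 1 (adjusted P = 0.057), young sham replicate 2 (adjusted P = 0.11), young sham replicate 3 (adjusted P = 0.055) or young ICH replicate 1 (adjusted P = 0.096).

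The remaining hypoxia-induced members were not called at either age. The mitophagy receptor Bnip3 (33.1 to 41.8 FPKM) had a log2FC of 0.02 ± 0.09 (adjusted P = 0.89) in young and -0.24 ± 0.09 (adjusted P = 0.11) in aged mice. The ankyrin repeat gene Ankrd37 (2.24 to 4.05 FPKM) had 0.06 ± 0.20 (adjusted P = 0.86) and -0.11 ± 0.20 (adjusted P = 0.75). Ndrg1, which is also expressed in myelinating cells (8.51 to 16.5 FPKM), had -0.21 ± 0.20 (adjusted P = 0.49) and -0.55 ± 0.20 (adjusted P = 0.093). None of these 6 differences passed the test. In aged mice 4 of the 7 oligodendrocyte markers fell, and none was called in young mice. Their summed level was 4915 to 8412 CPM in the young sham, 5721 to 7464 in the young ICH, 5344 to 6988 in the aged sham and 4258 to 4964 in the aged ICH group. Their part in the lower Ndrg1 values was not tested. Antisense or neighboring genes overlap 22.3% of the exonic bases of Bnip3 and 26.4% of those of Ankrd37 on the other strand, and the sources used here do not state whether counting used the strand.

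Promoter sequence was read for the members because several are textbook HIF targets. RefSeq windows (GRCm38.p6) of 300 bases, from 250 before to 50 after a transcription start, were present for 29 of the 32 members, 41 windows in all, with none for Slc2a3, Epas1 and Ndrg1. The core letters of the hypoxia response element, ACGTG or GCGTG, were searched on both strands, so that CACGT and CACGC count on the printed strand, and the E-box CACGTG counts on both strands. At least 1 match occurred in 33 of the 41 member windows (80.5%), against 43.8% of all 32851 promoter windows and 69.2% of the 8499 windows with a GC content of 60% to 75%. The member windows had a median GC content of 63.3% against 52.7% for all windows. All 7 windows of the genes that rose at both ages held a match, with 1 window per gene. So did 26 of the 34 windows of the other members (76.5%), which belonged to 22 genes. Several of these were alternative windows of the same gene and some overlapped, so the shares do not count genes. Of the 22 genes, only Eno2, Gpi1 and Tpi1 held no match in any window. The median GC content was 67.3% in the 7 windows and 61.8% in the 34. These letters are short, and a match is a description of the sequence and not a binding site. The 250 bases before the start are shown 5′ to 3′ along the gene for 5 genes that rose at both ages, chosen to cover glucose uptake, hexokinase, lactate transport and the hypoxia response, and for Pgam1, which fell, with matches in capitals.
Slc2a1, chr4:119108495-119108744, plus strand: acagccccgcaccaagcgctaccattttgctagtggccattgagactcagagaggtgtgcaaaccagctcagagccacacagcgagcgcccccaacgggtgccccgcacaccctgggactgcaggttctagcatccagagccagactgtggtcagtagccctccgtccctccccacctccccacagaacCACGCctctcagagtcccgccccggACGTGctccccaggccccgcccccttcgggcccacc
Hk2, chr6:82774455-82774704, minus strand: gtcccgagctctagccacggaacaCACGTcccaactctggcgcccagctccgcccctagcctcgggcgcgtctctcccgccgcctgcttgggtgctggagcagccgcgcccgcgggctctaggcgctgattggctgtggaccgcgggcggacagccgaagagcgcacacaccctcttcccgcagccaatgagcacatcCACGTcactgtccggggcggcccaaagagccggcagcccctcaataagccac
Slc16a1, chr3:104638414-104638663, plus strand: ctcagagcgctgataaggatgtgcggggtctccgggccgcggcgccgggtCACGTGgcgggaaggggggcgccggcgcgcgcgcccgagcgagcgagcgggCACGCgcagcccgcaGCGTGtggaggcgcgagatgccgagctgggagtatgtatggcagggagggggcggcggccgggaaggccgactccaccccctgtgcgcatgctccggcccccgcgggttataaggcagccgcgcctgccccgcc
Slc16a3, chr11:120948817-120949066, plus strand: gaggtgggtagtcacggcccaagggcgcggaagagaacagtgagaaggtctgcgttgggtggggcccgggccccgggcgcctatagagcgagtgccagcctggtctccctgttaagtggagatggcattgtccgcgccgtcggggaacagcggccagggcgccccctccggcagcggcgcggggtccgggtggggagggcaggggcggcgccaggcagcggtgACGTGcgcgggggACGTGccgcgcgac
Adm, chr7:110627407-110627656, plus strand: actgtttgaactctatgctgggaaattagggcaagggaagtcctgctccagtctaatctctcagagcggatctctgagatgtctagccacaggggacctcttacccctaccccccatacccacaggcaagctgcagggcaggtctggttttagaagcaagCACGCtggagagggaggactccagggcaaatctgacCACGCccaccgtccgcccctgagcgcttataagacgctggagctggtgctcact
Pgam1, chr19:41911621-41911870, plus strand: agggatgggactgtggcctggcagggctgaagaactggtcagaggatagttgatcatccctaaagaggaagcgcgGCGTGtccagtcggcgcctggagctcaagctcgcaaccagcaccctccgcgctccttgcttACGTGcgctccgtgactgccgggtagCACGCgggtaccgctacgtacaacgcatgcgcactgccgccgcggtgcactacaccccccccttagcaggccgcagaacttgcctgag
In the 300-base windows Slc16a1 held 5 matches, Pgam1 held 3, and Slc2a1, Hk2, Slc16a3 and Adm held 2 each. Hif1a and Hk3, which also rose at both ages and are not printed, held 3 and 1. A relation of these counts to the response was not tested.

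The balance between related members was compared within each sample as a log2 ratio of counts, which needs no scaling between libraries, with an exact two-sided permutation test that exchanged surgery labels within each age (400 arrangements, smallest possible P 0.005) and adjustment over the 6 ratios. The counts are not corrected for gene length, so only changes of a ratio are read. Hk2 to Hk1 moved furthest, from a mean of -4.97 ± 0.08 (SD, n = 3) in young sham and -4.77 ± 0.45 in aged sham samples to -3.93 ± 0.34 in young ICH and -3.59 ± 0.18 in aged ICH samples. The mean difference between ICH and sham was 1.11 (exact permutation P = 0.005, adjusted P = 0.010). Every ICH sample was above every sham sample of its age. The ratio of Slc2a1 to Slc2a3 was higher after ICH by 0.79 (exact permutation P = 0.005, adjusted P = 0.010), from -0.29 ± 0.30 to 0.71 ± 0.35 in young and from -0.15 ± 0.20 to 0.44 ± 0.17 in aged mice. Slc16a3 gained on Slc16a1 by 0.47 (exact permutation P = 0.005, adjusted P = 0.010). Both transporters rose, Slc16a3 by more. The ratio of Ldha to Ldhb differed by -0.05 in young and 0.36 in aged mice, 0.15 on average (exact permutation P = 0.26, adjusted P = 0.39), and without young ICH replicate 1 the average was 0.24 with an adjusted P of 0.0375. Eno1 to Eno2 differed by 0.03 (exact permutation P = 0.565, adjusted P = 0.565) and Pfkl to Pfkm by 0.05 (exact permutation P = 0.33, adjusted P = 0.396).

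**Figure D4:**
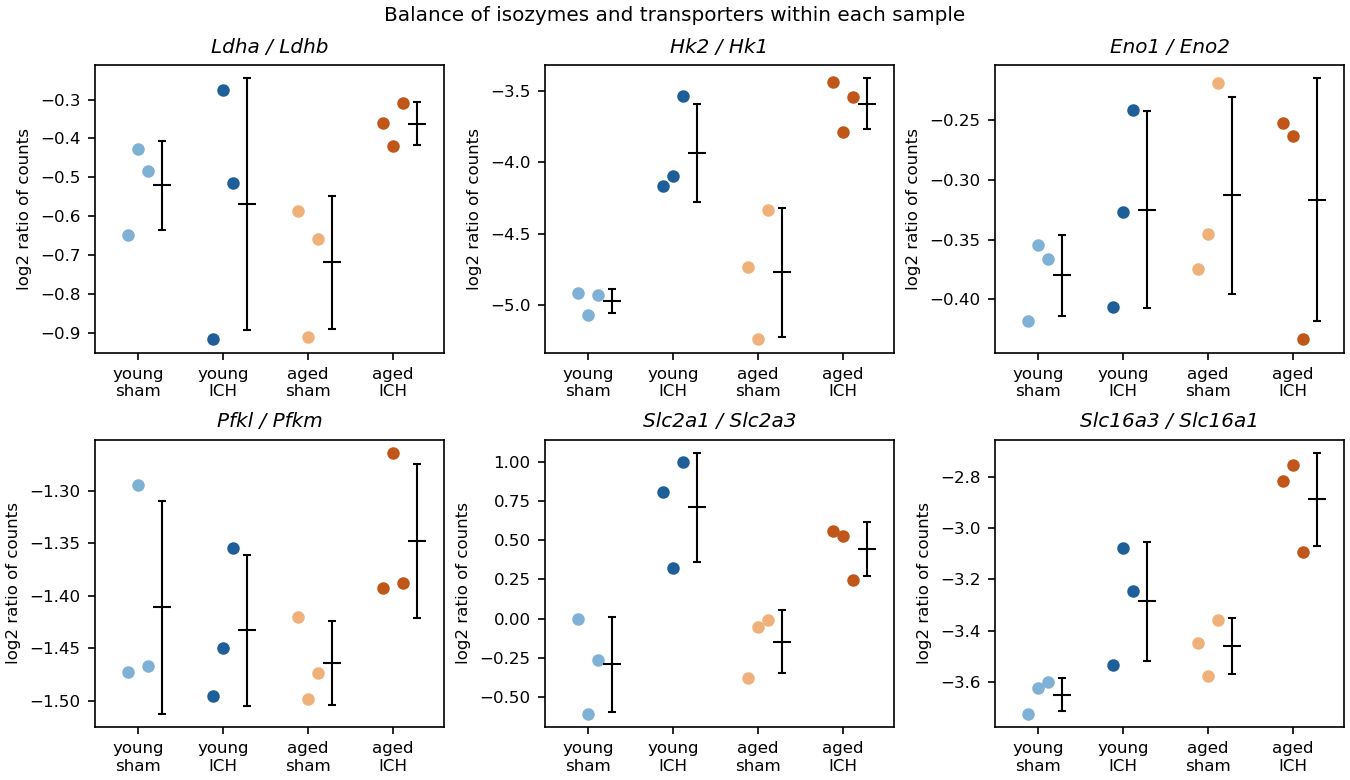
log2 ratio of counts of 6 pairs of related members in each of the 12 samples, with the mean ± SD of each group beside the points. Hk2 to Hk1, Slc2a1 to Slc2a3 and Slc16a3 to Slc16a1 are higher in ICH than in sham samples at both ages, and the groups of Eno1 to Eno2 overlap at both ages. Those of Ldha to Ldhb and Pfkl to Pfkm overlap in young mice, and in aged mice the ICH samples lie above the sham samples.

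The members were also counted by their level. Of the 10 rows with a mean under 10 FPKM over the 12 samples, 4 rose in young and 5 in aged mice and none fell, against 9.96% and 6.58% rising among all genes tested in that range. The 14 rows between 10 and 100 FPKM included 4 that rose and 2 that fell in young mice and 3 that rose and none that fell in aged mice. Among all genes tested in that range 9.35% rose and 21.7% fell in young and 8.21% rose and 14.6% fell in aged mice, so that the share of rows that fell in young mice (14.3%) was below the background. The 9 rows of at least 100 FPKM, which are Pfkm, Aldoa, Tpi1, Pgk1, Pgam1, Eno1, Eno2, Pkm and Ldhb, included none that rose, against 14.8% of all genes tested at that level in young and 11.5% in aged mice. Of these rows 2 fell in young mice (22.2%, against 23.3%) and 1 in aged mice (11.1%, against 9.63%). Their log2FC was below 0 in 9 of 9 at both ages under TMM, and under total-count scaling in 8 of 9 in young mice (Pfkm above 0) and in 7 of 9 in aged mice (Pgk1 and Pkm above 0). Among all 270 genes tested at that level, 164 were below 0 in young and 164 in aged mice. The 7 general neuron markers summed to 6461 to 7707 CPM in the young sham, 4620 to 6068 in the young ICH, 6314 to 6995 in the aged sham and 5126 to 5675 in the aged ICH group, and 3 of them fell in young mice and none was called in aged mice. Their part in the lower values of the abundant enzymes was not tested.

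**Figure D5:**
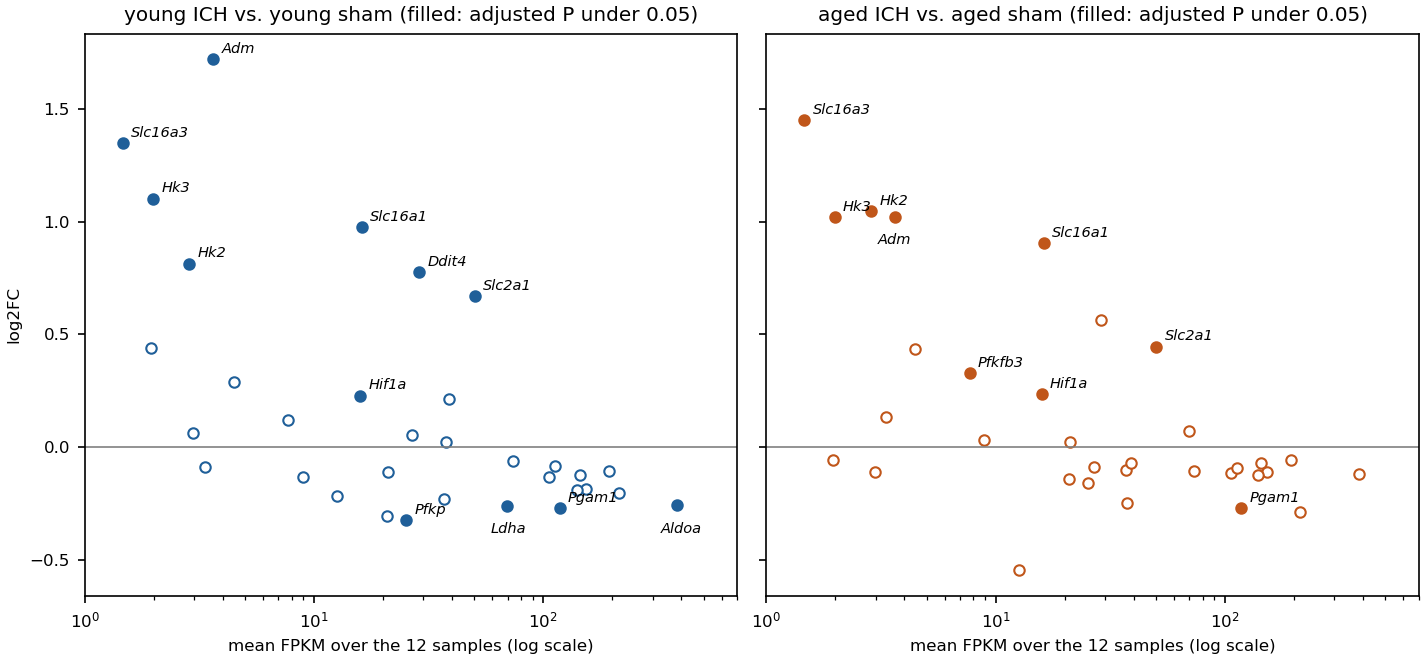
log2FC of ICH vs. sham of the 33 rows against their mean FPKM over the 12 samples (log scale), in young mice on the left and aged mice on the right, with filled points for an adjusted P under 0.05. Adm, Slc16a3, Hk3 and Hk2, which pass 1 in at least 1 of the panels, have a mean under 10 FPKM, and the 9 points of at least 100 FPKM lie below 0, which under total-count scaling changes for Pfkm in young and for Pgk1 and Pkm in aged mice.

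Between ages, no member passed the test. In aged sham vs. young sham samples 0 of 33 rows were called by edgeR (background 0.0884% up and 0.014% down). At an unadjusted P under 0.05 there were 5 rows, Adm, Ldha, Aldoa, Pgk1 and Pgam1, of which Adm alone was higher with age, against 12.3% of all genes tested. DESeq2 called Adm up and Ldha down. Adm had a log2FC of 1.29 ± 0.29 (adjusted P = 0.16), with 0.834, 1.14 and 1.55 FPKM in young and 2.20, 2.11 and 4.55 FPKM in aged sham samples, which did not overlap. Its adjusted P was 0.0024 with DESeq2 and 0.038 without the filter on low counts, so the call depended on the procedure. By the criterion of fold change and unadjusted P, Adm was higher and no member was lower (background 2.82% and 0.898%). Ldha had a log2FC of -0.29 ± 0.08 (adjusted P = 0.20, and 0.040 with DESeq2). On the TMM scale the groups did not overlap for 3 rows that were higher (9.09%, against 9.81% of all genes) and 12 that were lower in aged sham samples (36.4%, against 11.2%). The 12 were Pgk1, Eno1, Eno2, Tpi1, Aldoa, Pgam1, Pkm, Ldha, Pfkm, Pfkl, Hk1 and Slc2a3, with log2FC from -0.29 to -0.08. In FPKM 8 of the 12 stayed apart (24.2% of the rows, against 7.47% of all genes), whereas Eno1, Pkm, Pfkm and Pfkl overlapped. The 12 had means from 20.9 FPKM (Slc2a3) to 385 FPKM (Aldoa) over all samples, whereas 16474 of all genes tested had a mean under 10 FPKM. Neither background was matched for level. The 3 that were higher were Adm, Gapdh and Bnip3, and in FPKM 6 rows were higher (18.2%, against 13.7%). With 3 samples against 3, the smallest P that a permutation of 1 gene could give is 0.1.

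After ICH, 0 of 33 rows were called between aged and young mice (background 0.0372% up and 0.0186% down). An unadjusted P under 0.05 was reached by 4 rows, Pfkfb3, Slc16a3, Adm and Pgam1 (9.54% of all genes), and DESeq2 called none. Adm was higher in aged ICH samples by 0.59 ± 0.27 (adjusted P = 0.52) and Slc16a3 by 0.49 ± 0.21 (adjusted P = 0.50). By fold change and unadjusted P, Adm was higher and none was lower (background 2.21% and 1.3%), and on the TMM scale the groups did not overlap for 2 rows that were higher and 2 that were lower (6.9% and 6.42%), against 3 and 0 rows in FPKM (8.53% and 4.82%). The response to ICH itself was compared between ages as an interaction, and 0 of 33 rows passed, as did 0 of all genes (0.0%), and none met the criterion of fold change and unadjusted P (background 0.484% up and 1.08% down). Ldha alone had an unadjusted P under 0.05 (2.82% of all genes), with an interaction of 0.33 ± 0.11 (adjusted P = 0.9999), and DESeq2 called no member. The 5 members grouped as hypoxia-induced (Adm, Ddit4, Bnip3, Ankrd37 and Ndrg1) had an interaction below 0. It ranged from -0.70 ± 0.40 for Adm to -0.18 ± 0.28 for Ankrd37, and none passed. The grouping was made here and leaves out glycolytic genes, many of which HIF also activates. Among those, Ldha, Hk2 and Pfkfb3 (0.21 ± 0.11) were above 0 and Slc2a1 was below, so the sign was not shared. Over all 33 rows 19 were above 0 and 14 below. In the lower glycolysis rows the interaction was above 0 in 8 of 9. For Hk2 it was 0.23 ± 0.28 (adjusted P = 0.9999), for Slc2a1 -0.22 ± 0.19 (adjusted P = 0.9999) and for Slc16a3 0.10 ± 0.31 (adjusted P = 0.9999). The young and aged responses had the same sign in 24 of 33 rows (72.7%), against 78.4% of all genes tested.

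Other genes of glucose handling and the HIF response were read from a list of 61, of which 57 were tested. This list, too, was chosen with earlier results of these data known. In young mice 8 rose (14.0%, against 9.89% of all genes tested) and 7 fell (12.3%, against 9.23%), with a median log2FC of 0.00. In aged mice 6 rose (10.5%, against 7.0%) and 6 fell (10.5%, against 6.15%), with a median of 0.02. Angptl4, a secreted inhibitor of lipoprotein lipase and a HIF target, rose at both ages. Angptl4 stood at 1.962, 2.57 and 3.96 CPM in the young sham and 17.7, 16.3 and 21.9 CPM in the young ICH samples, and at 3.61, 3.10 and 9.19 CPM in the aged sham and 24.2, 20.0 and 21.6 CPM in the aged ICH samples. The log2FC was 2.72 ± 0.37 (adjusted P = 0.0017) and 2.04 ± 0.35 (adjusted P = 0.0067). Pdk4, a pyruvate dehydrogenase kinase induced in fasting, rose in young mice with a log2FC of 1.11 ± 0.16 (adjusted P = 0.0020), and Sap30, a subunit of a histone deacetylase complex, rose in aged mice with 0.85 ± 0.14 (adjusted P = 0.0061).

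Lower levels were found for a further transporter of lactate. Slc16a7 (MCT2), the high-affinity monocarboxylate transporter of neurons, fell at both ages. Slc16a7 stood at 50.7, 65.1 and 58.6 CPM in the young sham and 31.98, 36.8 and 30.3 CPM in the young ICH samples, and at 47.6, 40.7 and 44.7 CPM in the aged sham and 26.9, 31.9 and 29.8 CPM in the aged ICH samples. No ICH sample reached the sham samples of its age, and the log2FC was -0.81 ± 0.11 (adjusted P = 0.0015) in young and -0.59 ± 0.11 (adjusted P = 0.0082) in aged mice, opposite in sign to those of Slc16a1 and Slc16a3. Slc2a5, a fructose transporter that marks microglia in brain, fell with a log2FC of -0.60 ± 0.17 (adjusted P = 0.033) in young and -0.63 ± 0.17 (adjusted P = 0.034) in aged mice. Arnt2, a neuronal partner of HIF-alpha, fell in young mice with -0.36 ± 0.10 (adjusted P = 0.032), and Stc2, a secreted glycoprotein, fell in aged mice with -0.76 ± 0.22 (adjusted P = 0.042). Vegfa, the angiogenic HIF target, is named here after its values were seen. It was not called, with -0.20 ± 0.09 (adjusted P = 0.13) in young and -0.17 ± 0.09 (adjusted P = 0.21) in aged mice. The 7 enzymes of the pentose phosphate pathway, which makes NADPH from glucose 6-phosphate, had a median log2FC of 0.21 in young and 0.15 in aged mice. In young mice Pgd (0.46 ± 0.06 (adjusted P = 0.0017)), Pgls (0.41 ± 0.08 (adjusted P = 0.0059)) and G6pdx (0.30 ± 0.09 (adjusted P = 0.031)) rose, and in aged mice Pgd (0.48 ± 0.06 (adjusted P = 0.0032)) and Pgls (0.43 ± 0.08 (adjusted P = 0.0082)). None of the 57 other pathway genes or the 7 pentose phosphate genes was called between ages, in sham or ICH samples, by edgeR.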

How the data were processed

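The authors sequenced RNA from 12 pooled samples and deposited raw fragment counts per gene and FPKM values. Per the labels, reads were aligned with HISAT2 to GRCm38.p6 and counted with featureCounts (Subread); strand and multi-mapping settings are not stated there or in the methods. The deposited FPKM equal counts scaled by total counted fragments and gene length, so a large change in a few genes moves all other values. The deposited counts (28410896 to 37785160 per sample) were filtered (filterByExpr, minimum count 10; 21495 genes kept), TMM-scaled and fitted with edgeR 4.0.16 (R 4.3.3; glmQLFit, glmQLFTest) over all 12 samples and 4 groups. Calls used Benjamini-Hochberg adjusted P under 0.05. The script was tested on simulated data. Alternatives were DESeq2 1.42.0, its size factors, no filter, a fold change and unadjusted P criterion, each group pair alone, a replicate block and omission of each sample. Total-count scaling, overlap read in FPKM and omission of 3 samples with choroid plexus markers were added after seeing the data. Named were all members called, up to 3 other pathway genes per direction and comparison with the largest log2FC, pentose phosphate genes called, and markers a result needed. One pathway gene that this rule names is not reported here. Members and lists were chosen with earlier results of these data known. Within each group no sample was a duplicate of another, and pairs across groups were not checked. CPM are counts normalized to the TMM-scaled library size. Same-numbered samples did not deviate together (correlations -0.55 to 0.34), so replicate numbers were not used as pairs. Sequences came from RefSeq (GRCm38.p6) and transcript sharing from GENCODE vM21 with stretches of 100 bases. The stretches were taken from the longest coding transcript of each member. Sequenced reads were paired and longer than these stretches.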

Additional observations from a re-analysis of the deposited data

How the results depend on the processing

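No called value reversed its sign. For members in young ICH vs. young sham, the count that rose (8) kept within 5 to 8 when each sample was left out in turn, with 5 without replicate 2 or 3 of young sham or replicate 3 of young ICH, and the count that fell (4) was 7 with DESeq2, 1 under total-count scaling, 0 with only the samples of the 2 groups, 0 by the fold change and unadjusted P criterion, 0 with the 3 choroid plexus samples left out, and 1 to 6 when each sample was left out. In aged ICH vs. aged sham the count that rose (8) was 5 by the fold change criterion, 2 with the 3 samples left out and 3 to 8 without 1 sample each, with 3 without aged sham replicate 2 or aged ICH replicate 1. The count that fell (1) was 3 with DESeq2, 2 with only the 2 groups, 0 by the fold change criterion, 0 with the 3 samples left out and 0 to 2 without 1 sample each. In aged sham vs. young sham 1 member was higher with no filter, 1 with DESeq2 and 1 by the fold change criterion (Adm each time), and 1 was lower with DESeq2 (Ldha). In aged ICH vs. young ICH 1 was higher by the fold change criterion (Adm). The log2 ratio of Ldha to Ldhb ranged from 0.0805 to 0.24 without 1 sample each. With the smaller fit of the 2 groups, the young calls of Ldha, Aldoa, Pfkp, Hif1a and Pgam1 and the aged calls of Adm and Hk3 were lost, and with no filter those of Hif1a at both ages and of Aldoa in young mice. The cause of these changes was not tested.

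Replicate numbers did not pair the samples, and a fit with the replicate block gave 2 members that fell in young mice in place of 4 and lost the aged call of Slc2a1 (adjusted P = 0.076). Under the same pairing, the ratios of Hk2 to Hk1 (1.11), Slc2a1 to Slc2a3 (0.79) and Slc16a3 to Slc16a1 (0.47) had an adjusted exact P of 0.0625 each, where the 64 arrangements allow no unadjusted P under 0.03125.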
